A study of Mus musculus with 6 samples.

Results

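Interferon-stimulated genes are the genes that cells switch on when interferon, a secreted warning signal of infection, binds its receptor. This account covers 39 of them, apart from the nucleic acid sensors, the OAS family and the interferon-inducible GTPases except Mx1 and Mx2, after depletion of Exosc8, a core subunit of the RNA exosome, which degrades and trims RNA from its 3' end. Genes were taken by name: a probe belonged to a gene if the array gave that gene's name. Of the 39 genes, 37 were on the array under that name, with 54 probes, and 29 had a probe well above background on every array of at least 1 group. These 29 are called measured below, out of 18228 measured genes. The rule by name used no measured value, but the genes were chosen with earlier results of these data known.

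Erythroid progenitors had been taken from mouse fetal liver at embryonic day E-14.5 and infected with retrovirus. In the 3 shExosc8 samples the virus carried a short hairpin RNA against Exosc8, and in the 3 shControl samples a hairpin against luciferase, which mouse cells lack. Cells of both groups were then cultured for 3 days with erythropoietin, dexamethasone and conditioned medium holding kit ligand, and total RNA was labelled with Cy3 and hybridised to 1 single-colour array per sample. Virus infection and hairpin expression were thus common to both groups, and no uninfected sample is analysed here. The title of the series gives the question as which genes Exosc8 regulates in these cells. Whether the replicates of a group were separate cultures or litters is not given in the labels. The p-values therefore cover the spread among these 6 samples, and that spread may be technical.

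Type I and type III interferons act through a complex that holds STAT2 and IRF9 and binds a promoter element called the interferon-stimulated response element. Interferon gamma acts through another element, the gamma activated site, and IRF1 and IRF7 bind elements close to the first kind. The induced proteins block virus entry, translation, replication or release, modify other proteins with the ubiquitin-like ISG15, or feed back on the pathway. Some of them, such as the transcription factors, are also made at a basal level in uninfected cells.

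Levels are given as scaled signal: the spot intensity after each array was scaled to a common 75th percentile, in arbitrary intensity units that can be compared between arrays for 1 probe but not between probes. Fold changes are shExosc8 over shControl on the log2 scale, with standard error, and adjusted p-values come from limma fitted over all 18228 genes with Benjamini-Hochberg adjustment. A gene rose or fell where its adjusted p was under 0.05. Exosc8 itself had scaled signals of 7158, 7080 and 10169 in shExosc8 and 17440, 17323 and 18394 in shControl. It was lower in every shExosc8 array, with a log2 fold change of -1.14 (adjusted p = 0.00554). The arrays shared 1 slide, on which each group filled a row of its own, so the effect of the row and that of the hairpin cannot be told apart.

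Of the 29 measured genes, 10 rose, 2 fell and 17 did not pass the threshold. Across all 18228 genes 29.8% passed it, 16% higher and 13.8% lower. The split depended on the scaling of the arrays. With the percentile taken over all probes 10 of the 29 rose and 7 fell, against 2650 and 4490 of all 18228 genes. With no scaling 9 rose and 12 fell, against 1648 and 7519 of all genes. Normexp background correction with the percentile gave 10 rises and 1 fall, against 3235 and 1602 of all genes. The falls among the 29 thus moved with those of all genes. The risen genes were Ifit1, Rsad2, Isg15, Cxcl10, Lgals3bp, Isg20, Ifitm3, Usp18, Irf1 and Parp12, and the fallen genes were Bst2 and Nmi. Among the 29, 9 rose past the threshold by at least 1 on the log2 scale, as did 10.1% of all genes. Bst2 alone of the 29 fell past it with -1 or lower, as did 1.93% of all genes. The median log2 fold change was 0.12 over the 29 and -0.06 over all genes. Over the 25 of them above background on all 6 arrays it was -0.17, against -0.05 over all genes kept in that way, so the order of the medians turned. Because a gene that is silent in shControl could enter the 29 only by being high in shExosc8, these shares are a description. The 4 genes that entered that way, each with fewer than 3 shControl arrays well above background, were Ifit1, Irf7, Parp12 and Cxcl10, and the other 7 risen genes were above background on all 6 arrays.

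**Figure D1:**
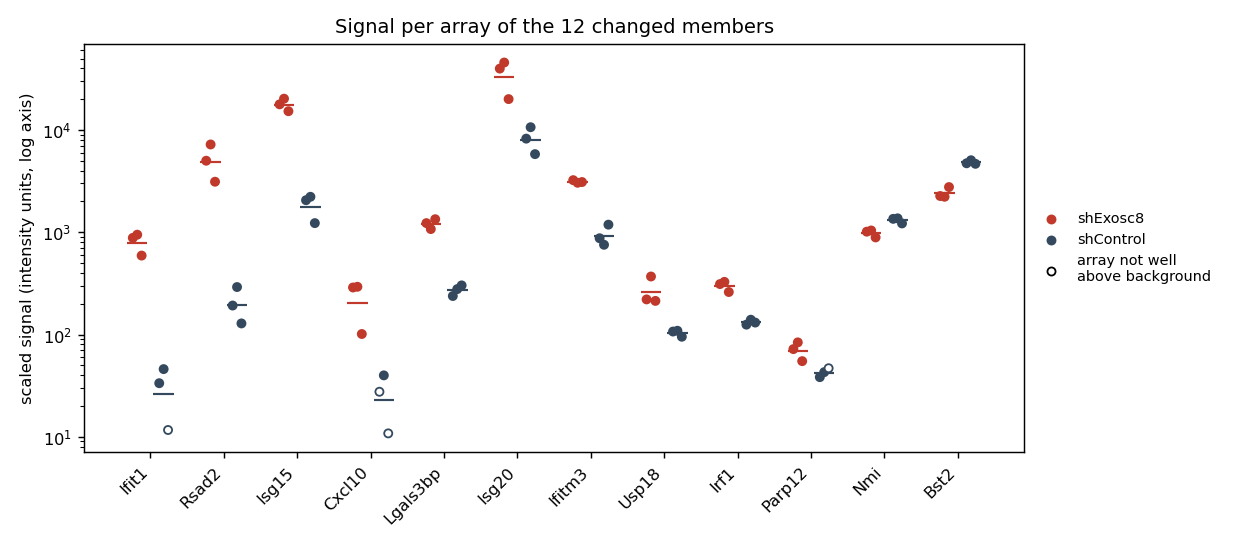
Scaled signal (intensity units, log axis) of the 12 changed genes on each array, with shExosc8 left of shControl, a bar at each group's mean of the log values and hollow points for arrays not well above background. The shExosc8 and shControl points of each gene do not overlap, and the gap is widest for Ifit1 and Rsad2 and reverses for Nmi and Bst2.

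Promoter stretches of 6 of these genes are printed because the genes form pairs with unlike values. The pairs are Ifit1 with Ifit2 of the same gene cluster, Rsad2 with its neighbour Cmpk2, and the risen Isg15 with the fallen Bst2. Each runs from base -140 to base -1 before the transcription start, 5' to 3' on the gene's strand, from RefSeq on GRCm38.p6. Capitals mark the core of the interferon-stimulated response element, searched as GAAA, any 2 bases and GAAA, on either strand (on the other strand it reads TTTC, any 2 bases and TTTC). The Isg15 stretch lies at chr4:156200819-156200958 on the minus strand, Ifit1 at chr19:34640749-34640888 on the plus strand, and Rsad2 at chr12:26456453-26456592 on the minus strand. The Bst2 stretch lies at chr8:71537473-71537612 on the minus strand.
Isg15: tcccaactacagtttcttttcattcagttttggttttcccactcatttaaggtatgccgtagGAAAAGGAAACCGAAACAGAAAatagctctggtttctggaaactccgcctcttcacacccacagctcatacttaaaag
Ifit1: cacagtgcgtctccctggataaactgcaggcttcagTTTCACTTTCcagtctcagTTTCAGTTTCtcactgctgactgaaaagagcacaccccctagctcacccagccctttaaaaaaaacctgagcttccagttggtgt
Rsad2: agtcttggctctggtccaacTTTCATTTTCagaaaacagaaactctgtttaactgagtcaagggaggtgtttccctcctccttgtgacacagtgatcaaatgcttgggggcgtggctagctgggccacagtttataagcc
Bst2: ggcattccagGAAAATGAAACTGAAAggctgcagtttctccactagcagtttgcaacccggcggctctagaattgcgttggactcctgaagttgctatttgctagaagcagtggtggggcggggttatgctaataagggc

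Isg15 held 3 overlapping copies in this stretch, Ifit1 held 2, Rsad2 held 1 and Bst2 held 2 overlapping copies. The copies in Isg15 and Bst2 were on the gene's own strand and those in Ifit1 and Rsad2 on the other strand. The neighbours that did not pass the test held none. Ifit2 had 2 annotated starts, with stretches at chr19:34550554-34550693 and chr19:34550948-34551087, and Cmpk2 had 1 at chr12:26469075-26469214, all on the plus strand.
Ifit2, window 1: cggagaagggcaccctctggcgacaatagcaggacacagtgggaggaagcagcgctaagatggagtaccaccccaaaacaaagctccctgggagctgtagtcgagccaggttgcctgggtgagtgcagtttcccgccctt
Ifit2, window 2: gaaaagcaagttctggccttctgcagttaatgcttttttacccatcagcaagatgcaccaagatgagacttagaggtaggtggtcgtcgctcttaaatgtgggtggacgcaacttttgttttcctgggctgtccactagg
Cmpk2: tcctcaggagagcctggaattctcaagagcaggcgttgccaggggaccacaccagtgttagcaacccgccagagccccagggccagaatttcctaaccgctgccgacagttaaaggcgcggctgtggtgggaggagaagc

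Counted over whole RefSeq promoter windows, from 250 bases before to 50 after the start, this core was found in 1079 of 27025 genes, or 3.99%. Of the 39 interferon-stimulated genes 31 had such a window, and 10 of them, or 32.26%, held the core. It was present in 5 of the 9 risen genes that had a window (Isg15, Ifit1, Rsad2, Cxcl10 and Ifitm3) and in 1 of the 2 fallen genes, Bst2. Among the 15 genes with a window that did not pass the test, it was present in 2, Stat2 and Trim21. A further 2, Ifit3 and Ddx60, held it among the 5 with a window that were not measured. In Ifitm3 and Trim21 the copies lay just after the start, and in Cxcl10 1 copy lay at -213. The core was therefore found in genes that rose, fell and did not pass, and a match describes letters, not a bound factor.

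The gamma activated site motif TTCNNNGAA, which reads the same on both strands, was found in 2582 of the 27025 genes, or 9.55%, and in 8 of the 31 interferon-stimulated genes. These included 3 risen genes, Irf1, Isg20 and Ifitm3, the fallen Bst2, and 4 that did not pass, Adar, Ifi35, Ifit2 and Samhd1. In Irf1, Isg20, Adar, Ifi35, Ifit2 and Samhd1 it occurred without the other motif. The 2 motifs overlapped each other in Bst2 and in Ifitm3.

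Among the ISG15 conjugation genes, 2 of 4 measured genes rose. Isg15, the ubiquitin-like protein itself, had scaled signals of 17834, 20264 and 15279.7 in shExosc8 and 2059.9, 2223 and 1229 in shControl. The lowest shExosc8 array lay well above the highest shControl array. Its log2 fold change was 3.31 ± 0.25 (SE, n = 3 each, adjusted p = 0.00074), a 9.94-fold rise. A second, dimmer probe gave 3.41. Both probes lie on chromosome 4 of mm9, at 155573649 to 155573708 and at 155573533 to 155573552 on the minus strand.

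Usp18, the protease that takes ISG15 off its targets and dampens interferon signalling, had scaled signals of 220.5, 369 and 213 in shExosc8 and 107, 109 and 95.1 in shControl. The 3 shControl values lay close together, and shExosc8 replicate 2 stood above the other two of its group. Usp18 had a log2 fold change of 1.32 ± 0.23 (adjusted p = 0.00967). The ligases of the pathway did not pass: Trim25, which can attach ISG15, had a log2 fold change of 0.33 (adjusted p = 0.211) and its other probe -0.21, of opposite sign. Herc6, the main ISG15 ligase of mouse, had 0.24 (adjusted p = 0.265), with overlapping groups.

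The IFIT proteins bind foreign RNA ends and block translation, and their genes sit side by side on chromosome 19. Ifit1, which binds RNA whose cap lacks a methyl group, had scaled signals of 881, 947 and 591 in shExosc8, against 33.4, 45.9 and 11.6 in shControl. It was well above background on every shExosc8 array and on 2 of the 3 shControl arrays. Its log2 fold change of 4.92 ± 0.51 (adjusted p = 0.00204), or 30.2-fold, had a 95% interval of 3.68 to 6.16, and the dim shControl values limit how well that size is known. With normexp background correction it was 3.07 with the percentile and 2.91 with quantile normalization, below Rsad2 (4.25 and 4.12) and Isg15 (3.31 in both).

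Ifit2, whose probe lies 73.5 kb from that of Ifit1 on mm9, had scaled signals of 302, 289.6 and 302 in shExosc8 and 276, 351 and 240.1 in shControl. The shExosc8 values lay inside the shControl range. Its log2 fold change was 0.06 ± 0.16 (adjusted p = 0.781), with a 95% interval of -0.31 to 0.44, far under the interval of Ifit1. Ifit3, with a probe 60.6 kb from that of Ifit1, was well above background on no shExosc8 array and on 1 shControl array. Its scaled signals were 7.91, 34.7 and 12.8 in shExosc8 and 19.9, 35.8 and 17.8 in shControl, and no fold change is given.

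**Figure D2:**
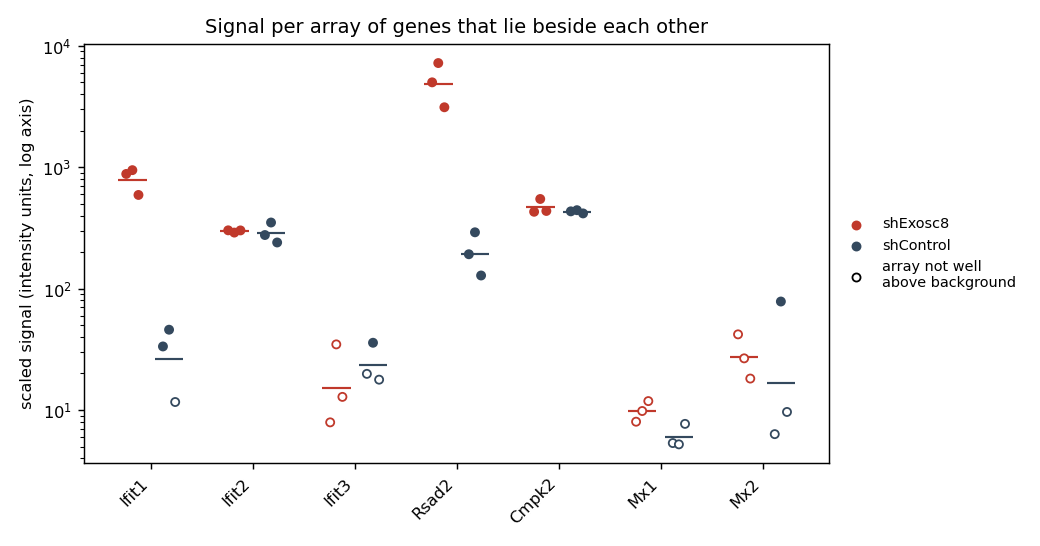
Scaled signal (intensity units, log axis) per array of the IFIT genes, of Rsad2 and Cmpk2, and of Mx1 and Mx2, with shExosc8 left of shControl, bars at the means of the log values and hollow points for arrays not well above background. Ifit1 and Rsad2 separate the groups, while Ifit2 and Cmpk2 overlap and Ifit3, Mx1 and Mx2 are near or below background.

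The antiviral effectors were split. Of 7 measured genes 3 rose, 1 fell and 3 did not pass. Rsad2 encodes viperin, which makes a chain-terminating ribonucleotide from CTP and also hinders virus budding. It had scaled signals of 5009, 7223 and 3122 in shExosc8 and 192, 291 and 128 in shControl. The groups were far apart on every array, with a log2 fold change of 4.65 ± 0.40 (adjusted p = 0.00111), or 25.1-fold. Its probe lies on chromosome 12 of mm9 at 27127859 to 27127918.

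Cmpk2 encodes a mitochondrial nucleotide kinase, and its probe lies 36.2 kb from that of Rsad2 on mm9, on the opposite strand. Cmpk2 had scaled signals of 429.9, 548 and 437 in shExosc8 and 433, 443 and 417 in shControl. shExosc8 replicates 1 and 3 lay inside the shControl range and replicate 2 above it. The log2 fold change was 0.12 ± 0.13 (adjusted p = 0.492), with a 95% interval of -0.19 to 0.43, and a second probe gave -0.12. In the pairs of Ifit1 with Ifit2 and of Rsad2 with Cmpk2, the interval of the gene that did not pass thus ended below 3.68. This was the lower end of the interval of Ifit1 and of Rsad2.

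Isg20, a 3' to 5' exonuclease that degrades single-stranded RNA, had scaled signals of 39896, 45738 and 20073 in shExosc8 and 8237, 10656 and 5811 in shControl. Replicate 3 was the lowest array of each group, and the groups did not overlap. The log2 fold change was 2.06 ± 0.37 (adjusted p = 0.0108), or 4.16-fold, and a second probe gave 2.00. Ifitm3 blocks fusion of virus with endosomal membranes and was read by 1 probe spotted 10 times. Its scaled signals were 3235, 3049 and 3101 in shExosc8 and 874, 755 and 1187 in shControl, a tight shExosc8 group above all controls. Ifitm3 had a log2 fold change of 1.76 ± 0.18 (adjusted p = 0.00188).

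Bst2 encodes tetherin, which holds budding virus particles on the cell surface and in mouse is also a surface marker of plasmacytoid dendritic cells. It went the other way. Its scaled signals were 2263, 2225 and 2768 in shExosc8 and 4729, 5064 and 4673 in shControl, so that all shExosc8 arrays were lower. The log2 fold change was -1.0 ± 0.12 (adjusted p = 0.00341), leaving 49.9% of the control level. Of 9 measured markers in a joint list of plasmacytoid and conventional dendritic cells, Bst2 among them, 4 rose, Bst2 fell and 4 did not pass. Their median log2 fold change was 0.51. Those that rose were Clec9a by a log2 of 3.44, Flt3 by 1.85, Zbtb46 by 1.12 and Tlr9 by 0.70. Those that did not pass were Tlr7 at 0.51, Siglech at 0.13, Cd209d at -0.19 and Tcf4 at -0.23. Clec9a was well above background on no shControl array, so its size is poorly known. Its floor-based ratio, explained below, was 5.27-fold higher. In bulk RNA, fewer cells of a type and less RNA per cell cannot be told apart.

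Samhd1, which hydrolyses the nucleotides that reverse transcription needs, had a log2 fold change of -0.33 (adjusted p = 0.0508). Adar, which edits adenosine to inosine in double-stranded RNA, had -0.28 (adjusted p = 0.133). In both genes all shExosc8 arrays were below all shControl arrays, but neither passed the threshold. Mx1 was not well above background on any array. Mx2 was above it on 1 shControl array alone, with scaled signals of 42, 26.7 and 18.2 in shExosc8 and 6.33, 78.3 and 9.64 in shControl. These dynamin-like GTPases, which trap viral nucleocapsids, therefore gave no fold change.

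Of the 4 transcription factors, Irf1 rose. It had scaled signals of 311, 327 and 260.4 in shExosc8 and 125, 139.5 and 131 in shControl, with narrow, separate groups. This gave a log2 fold change of 1.18 ± 0.12 (adjusted p = 0.00214), or 2.27-fold. Another Irf1 probe was well above background on no array of either group and gave no fold change. Irf7, the factor that amplifies interferon alpha production, had scaled signals of 116, 161 and 102 in shExosc8 and 48.7, 115 and 33.9 in shControl. The groups overlapped because shControl replicate 2 reached the shExosc8 range. The log2 fold change of 1.11 ± 0.45 did not pass (adjusted p = 0.107), and its 95% interval was 0.02 to 2.21. Irf9 and Stat2, which belong to the complex that reads the response element, had -0.28 (adjusted p = 0.166) and -0.26 (adjusted p = 0.335), with overlapping groups.

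Nmi and Ifi35 encode partner proteins that bind each other in the cytoplasm after interferon. Nmi fell. It had scaled signals of 1014, 1041 and 890.5 in shExosc8 and 1353, 1369 and 1220.1 in shControl. Every shExosc8 array was lower, with a log2 fold change of -0.42 ± 0.11 (adjusted p = 0.0353), or 74.7% of the control level. Ifi35 had -0.29 ± 0.09 and narrowly missed the threshold (adjusted p = 0.0578), again with all shExosc8 arrays below all shControl arrays.

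The ADP-ribosyltransferase genes gave 1 rise among 4. Parp12, which modifies proteins at the Golgi and restricts some RNA viruses, had scaled signals of 72, 83.8 and 54.9 in shExosc8 and 38.3, 42.8 and 46.8 in shControl, where 2 of 3 arrays were well above background. The groups were separate but close, with a log2 fold change of 0.70 ± 0.18 (adjusted p = 0.0315). Parp9 and its partner ligase Dtx3l had -0.52 (adjusted p = 0.157) and 0.16 (adjusted p = 0.318). Parp14 had -0.40 (adjusted p = 0.112), with all shExosc8 arrays below all shControl arrays.

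None of the 4 measured TRIM and PML body genes passed the adjusted threshold in limma, and 1 of them, Trim21, had an unadjusted p under 0.05. All 4 estimates were below 0, though that of Sp100 was above 0 with normexp background correction. Trim21, a receptor for antibody inside cells, had -0.43 (adjusted p = 0.0621), with scaled signals of 413, 508 and 381 in shExosc8 and 544, 571 and 629 in shControl. Pml, the scaffold of the nuclear bodies, had -0.30 (adjusted p = 0.187). Its partners Sp100 and Daxx had -0.17 (adjusted p = 0.65) and -0.21 (adjusted p = 0.384). Their groups overlapped, except in Trim21, where all shExosc8 arrays were lower.

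Of the other induced genes, 7 were on the array, and the 2 that were measured rose. Lgals3bp, a secreted galectin-binding glycoprotein, had scaled signals of 1229, 1075 and 1342 in shExosc8 and 238, 278 and 302 in shControl. The groups were tight and separate, with a log2 fold change of 2.16 ± 0.14 (adjusted p = 0.000495), or 4.46-fold, and a second probe gave 1.43. Cxcl10, the chemokine that draws activated T cells, had scaled signals of 288, 293 and 101 in shExosc8 and 27.5, 39.8 and 10.8 in shControl. It was well above background on 1 of the 3 shControl arrays. The log2 fold change was 3.17 ± 0.61 (adjusted p = 0.0135), with shExosc8 replicate 3 well below the other two of its group. With the dim shControl values its size is poorly known: normexp background correction gave 1.73 with the percentile and 1.48 with quantile normalization. Another Cxcl10 probe was well above background on no array of either group and gave no fold change.

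The 5 other genes of this group did not pass the filter on dim probes. Rtp4, a chaperone-like protein, had scaled signals of 79.7, 83 and 46.7 in shExosc8 and 16.9, 14.2 and 9.58 in shControl. It was well above background on 2 shExosc8 arrays and on no shControl array, with a floor-based ratio of 2.71-fold higher in shExosc8 and no test. A floor-based ratio sets the shExosc8 mean against a shControl mean that takes, on each array, the higher of the probe's own signal and the lowest signal of any probe well above background. Probes with higher signals could still miss that flag, such as Parp12 at 46.8 and Irf7 at 33.9 on shControl replicate 3. shExosc8 arrays without the flag, such as replicate 3 here, entered with their own signal. Such a ratio is therefore no strict lower bound. Xaf1, which binds and restrains a caspase inhibitor, had 72, 106 and 45.8 in shExosc8 and 12, 37.4 and 7.46 in shControl on its brighter probe, above background on 2 and on 1 array. Ifi44 and Epsti1 were above background on shControl replicate 2 alone, and Ddx60 on no array.

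The names Ifi27 and Trim30 were not on the array. Trim30a, which RefSeq lists with the older name Trim30, had scaled signals of 68.2, 95 and 28.4 in shExosc8 and 21.1, 5.69 and 13.3 in shControl. It was above background on 2 and 0 arrays, with a floor-based ratio of 2.12-fold higher. The probe named Ifi27l1, whose accession RefSeq gives to Ifi27, had 3038, 3112 and 2353 in shExosc8 and 409, 616 and 709 in shControl, with a log2 fold change of 2.32 (adjusted p = 0.00185). Both were looked up after the rule by name had missed them and are counted in no total.

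**Figure D3:**
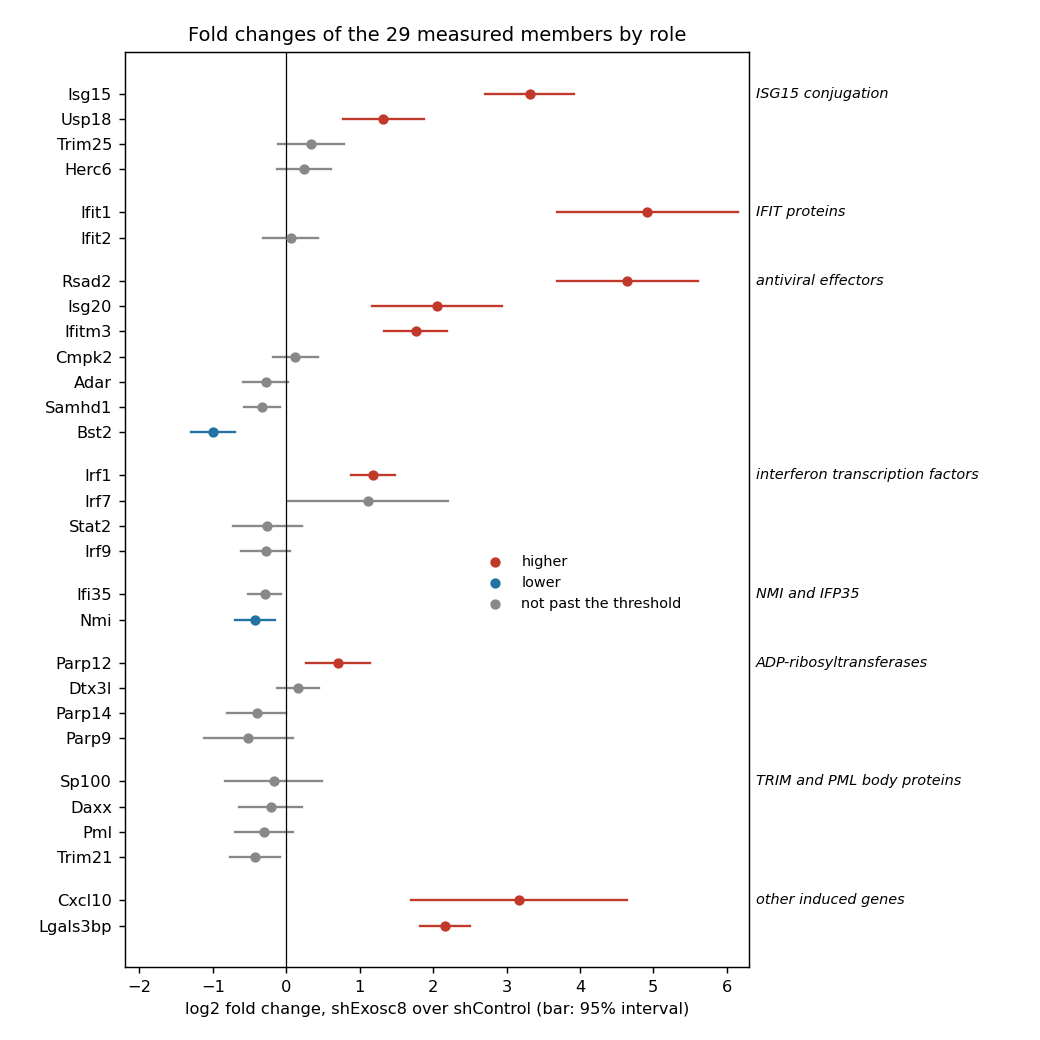
Log2 fold change, shExosc8 over shControl, of the 29 measured genes in their role groups, with bars for the 95% interval. Red marks the 10 risen and blue the 2 fallen genes, and grey marks the 17 that did not pass, of which Irf7 has the widest interval.

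Of the 17 measured genes that did not pass, 11 had a log2 fold change below 0 and 6 above 0, between -0.52 and 1.11. In 5 of the 11, Samhd1, Adar, Ifi35, Parp14 and Trim21, all shExosc8 arrays lay below all shControl arrays, and in none of the 17 did all lie above. Counting all 29, the groups did not overlap in 17, with shExosc8 above in 10 and below in 7. Across all genes 51.6% did not overlap, 23.2% above and 28.4% below, so the share below among the 29 was near the background.

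**Figure D4:**
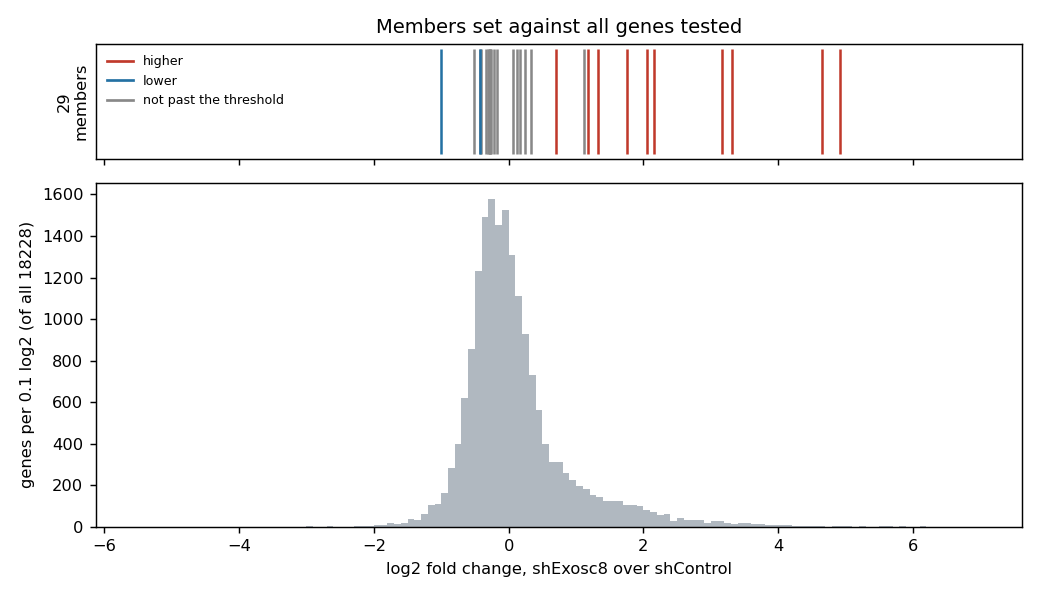
Log2 fold changes, shExosc8 over shControl, of the 29 measured interferon-stimulated genes (upper strip, 1 line per gene) above a histogram of all 18228 measured genes (genes per 0.1 log2). Ifit1 at 4.92 and Rsad2 at 4.65 lie in the thin right tail, and most genes that did not pass lie within the bulk.

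Replicates differed in a shared way. Among the 10 risen genes shExosc8 replicate 3 was the lowest of its group in 8, which also held for 78.1% of all risen genes of the array. Replicate 2 was the lowest in the other 2, Ifitm3 and Lgals3bp, and in 11.6% of all risen genes. In shControl, replicate 3 was the lowest in 6 of the 10, replicate 1 in 3 and replicate 2 in 1. Across all risen genes of the array these replicates were lowest in 51.5%, 35.8% and 12.7%. shControl replicate 2 had 67.3% of its non-control spots well above background, against 43.1% to 49.3% on the other 5 arrays, and Ifi44, Epsti1 and Mx2 were above background on that array alone.

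The genes upstream of the response were read from the same fit. Of 15 interferon genes on the array 7 were measured and 2 rose. Ifnl3, a type III interferon, had scaled signals of 1351, 1069 and 914 in shExosc8 and 328, 471 and 312 in shControl, with a log2 fold change of 1.59 (adjusted p = 0.0047). Ifna1 had 202, 165 and 135 in shExosc8 and 88.8, 118 and 80.5 in shControl, with 0.80 (adjusted p = 0.0319). Interferon alpha genes, and Ifnl2 and Ifnl3, are near-identical copies, so a probe may not tell them apart. Ifnb1 and Ifng, which encode interferon beta and gamma, were not measured.

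None of the 5 measured receptor genes and none of the 4 measured JAK and STAT genes passed the adjusted threshold in limma, and at an unadjusted p under 0.05 there were 0 receptors and 1 JAK or STAT gene, Jak1. Among other IRF genes, Irf8 rose by a log2 of 1.51 (adjusted p = 0.0135). Of 8 feedback inhibitors Ptpn11, a phosphatase, rose by 1.69 (adjusted p = 0.000828), and Ptpn1, a phosphatase that acts on JAK kinases, fell with -0.42 (adjusted p = 0.0487). Of 6 measured genes of the STING and RIG-I pathway, Ddx58, which encodes the RNA sensor RIG-I, rose by 1.54 (adjusted p = 0.00262). Trex1, the DNA exonuclease that limits STING signalling, fell by 0.46 on the log2 scale (adjusted p = 0.0229).

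Every list of cell type markers rose in a larger share of its measured genes than the 16% of all genes. The shares were largest for megakaryocyte (100%), neutrophil and monocyte (92.9%) and macrophage markers (75%), and smallest for erythroid (23.1%) and lymphoid markers (20%). A marker silent in shControl could be measured only by being high in shExosc8, so these shares are a description. The sums of signal below weigh bright probes most. Of 14 erythroid markers the 13 on the array were all measured, Gata1 and Klf1 included, with sums of 2137140 to 3326510 in shExosc8 and 1676702 to 1961054 in shControl, and 3 rose and 1 fell. Of 16 macrophage markers on the array 8 were measured and 6 rose, with a summed signal of 10374 to 11975 in shExosc8 and 3360 to 4291 in shControl, while Mertk, Cd163, Fcgr1, Vcam1, C1qa, C1qc, Cd14 and Aif1 did not pass the filter. Of 14 measured neutrophil and monocyte markers 13 rose, with sums of 304499 to 384751 in shExosc8 and 123071 to 142215 in shControl. All 13 megakaryocyte markers rose, with sums of 338026 to 479886 in shExosc8 and 36687 to 53365 in shControl. Hepatocyte markers rose in 4 of 7 measured genes, lymphoid markers in 1 of 5 and endothelial markers in 1 of 2. The part of such cells in the rises was not tested.

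The calls were not equally firm. Of the 10 rises, 8 passed without each array in turn, and the rises of Ifit1, Rsad2, Isg15, Ifitm3 and Lgals3bp also passed under every other processing tried in which they were measured. With the slide column as a block, Usp18 (adjusted p = 0.0935), Irf1 (adjusted p = 0.102), Isg20 (adjusted p = 0.124), Cxcl10 (adjusted p = 0.1), Parp12 (adjusted p = 0.259), Bst2 (adjusted p = 0.115) and Nmi (adjusted p = 0.329) did not pass, nor did Exosc8 (adjusted p = 0.124). Slide columns 2 and 3 each held 1 array of either group. Within both columns all 10 risen genes were higher in shExosc8, by a log2 of 0.36 to 5.23, and both fallen genes lower. Because the groups of these genes did not overlap, any pair of arrays had to give these signs, so this adds no support. The exact two-sided permutation test of 3 against 3 arrays cannot go below p = 0.1. Cxcl10 did not pass without shExosc8 replicate 1 (adjusted p = 0.0545) or without shExosc8 replicate 2 (adjusted p = 0.0516). Parp12 and Nmi passed without shExosc8 replicate 3, and failed without any 1 of the other 5 arrays. With no filter on dim probes Cxcl10 (adjusted p = 0.0573), Parp12 (adjusted p = 0.121) and Nmi (adjusted p = 0.145) did not pass. Without shControl replicate 2, the array with the most spots above background, Irf7 passed as higher, with a log2 fold change of 1.61 (adjusted p = 0.0156). Samhd1 (adjusted p = 0.0428) and Pml (adjusted p = 0.0422) passed as lower without shExosc8 replicate 3, and Trim21 (adjusted p = 0.0395) without shExosc8 replicate 2.

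**Figure D5:**
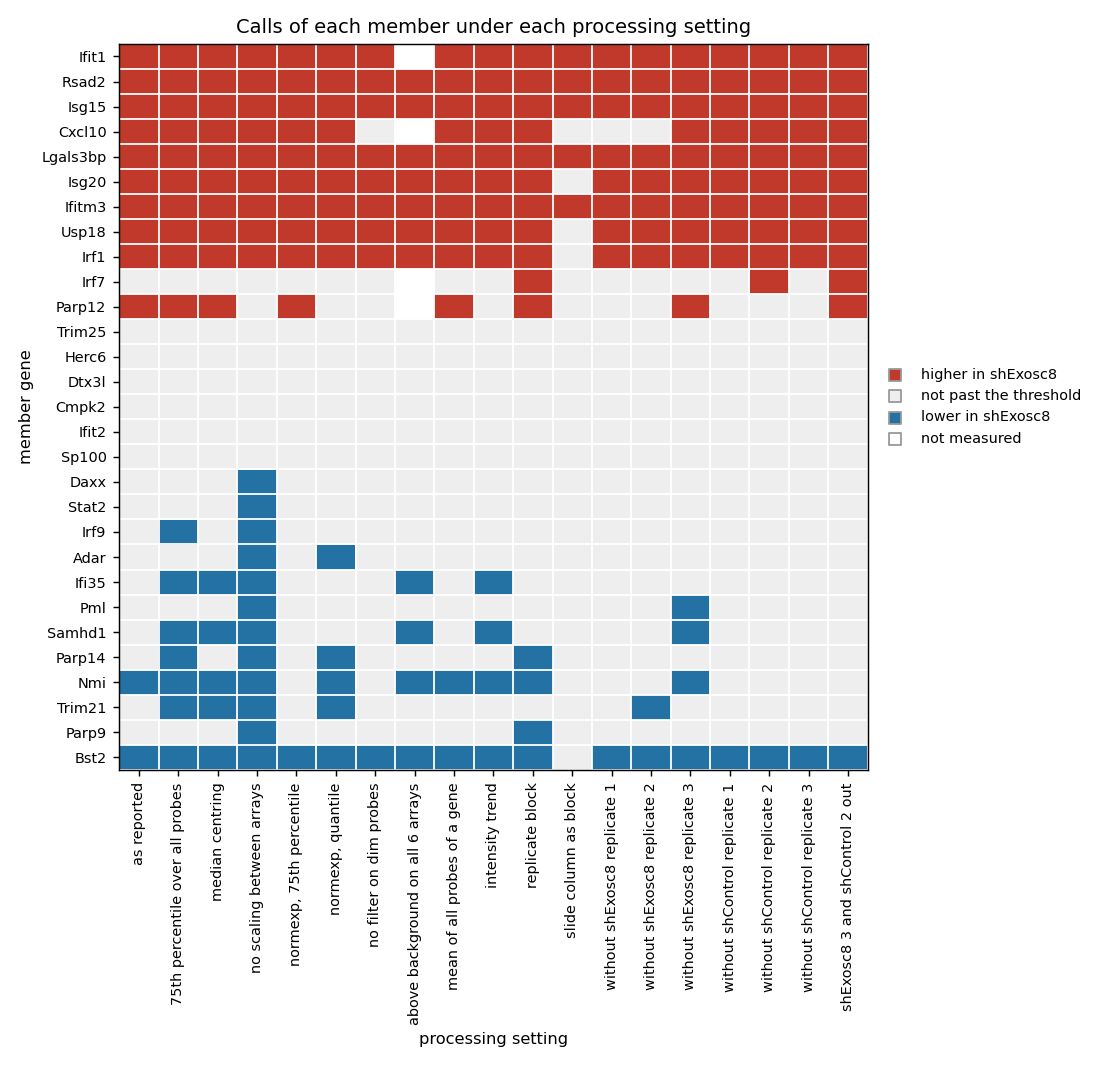
Call of each measured gene (rows) under each way of processing (columns): red higher in shExosc8, blue lower in shExosc8, grey not past the threshold and white not measured. The top rows stay red in nearly every column, Bst2 stays blue in all but the slide column block, and the middle rows change with the scaling.

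In the authors' deposited table, 7 of the 29 genes had an adjusted p under 0.05 on any spot, and all 7 were higher in shExosc8. The share of all genes that passed there was not counted. By the authors' limma values, Irf1 (adjusted p = 0.0587), Isg20 (adjusted p = 0.084), Bst2 (adjusted p = 0.0876), Parp12 (adjusted p = 0.208) and Nmi (adjusted p = 0.233) did not pass. Exosc8 (adjusted p = 0.073) did not pass there either. All 12 genes called here had the same direction in the authors' deposited table on every spot. That table rests on the same intensities, so the shared direction is no separate evidence.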

How the data were processed

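Gene expression was read on 6 single-colour arrays, 3 per group, with groups taken from the treatment in the labels. The deposited spot intensity values came from Agilent Feature Extraction 10.7.3.1, which subtracted background and detrended each array, per the file headers, and that software also wrote the flags for spots well above background. The deposited series table holds the same intensity values, equal within 0.01%, and the authors' log2 fold changes and p-values. Limma is named for these in the submitters' processing notes, and how they were normalized is not stated there. Coordinates of probes are on mm9, per the file headers.

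From these, 3671 control spots of 62976 and flagged outlier spots were left out, spots of 1 probe were averaged as log2 values, and 55660 probes were used. Each array's 75th percentile was subtracted, taken over the 21615 probes (38.8%) well above background on all arrays. A probe was kept where all arrays of 1 group read it well above background (24836), and the brightest probe stood for each of 18228 genes. Names came from a RefSeq table through accessions for 27450 probes, by symbol for 3540, by the rule for 54, and from the files for 24616. Differences were tested with limma 3.58.1 in R 4.3.3 (lmFit and eBayes, two-sided, Benjamini-Hochberg, threshold 0.05), a step tested on simulated data. Within groups, arrays correlated at r = 0.9826 to 0.9956. No probe of these genes was saturated. The number of arrays limits the precision.

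Every gene of the list on the array is named. Values per array are given for those past the threshold that fell or had a log2 fold change of at least 1, and for those with a floor-based ratio. Others with such values were chosen after their values were seen. Of the pathway lists, genes past the threshold are named, apart from items not reported here. The genes, lists and tests were chosen with earlier results of these data known. The alternatives covered scaling, background correction, the filter on dim probes, the choice of probe, a variance trend, blocks for replicate number and slide column, and leaving out arrays.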

Additional observations from a re-analysis of the deposited data

How the results depend on the processing

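Values below are log2 fold changes or counts of genes past the threshold. No called gene changed sign under any of the 18 alternatives: of 518 values of single genes, 443 kept direction and side of the threshold, 27 lost the call, 33 gained it and 15 changed sign. The rises among the 29 genes numbered 5 to 11 and the falls 0 to 12. The percentile over all probes shifted the median of all genes by -0.1457, no scaling by -0.4985 and normexp with the 75th percentile by 0.1001, and rises made up 37.1%, 18% and 66.9% of all calls, against 53.7% as reported. The count of falls among the 29 was 7 with the percentile over all probes, 5 with median centring, 12 with no scaling, 1 with normexp and the percentile, 5 with normexp and quantile normalization, 1 with no filter, 4 with probes above background on all 6 arrays, 4 with a variance trend, 4 with the replicate block and 0 with the slide column as a block. Leaving out 1 array gave 1 to 4 falls, and leaving out both shExosc8 replicate 3 and shControl replicate 2 gave 1. Blocking on slide column leaves few degrees of freedom, and 5 of the 29 then rose. All genes lower numbered 4490 (percentile over all probes), 7519 (no scaling), 1602 (normexp with the percentile), 366 (no filter, where 34950 genes were tested), 41 (slide column) and 695 to 4280 (leaving out 1 array: fewest without shExosc8 replicate 1, most without shExosc8 replicate 3). Further counts of all genes lower were 3226 (median centring), 2575 (normexp, quantile), 3089 (variance trend) and 3154 (both named arrays left out). With probes above background on all 6 arrays, 2684 of 16218 genes were lower. All genes higher numbered 1648 (no scaling), 1449 (no filter), 496 (slide column) and 1652 to 4048 (leaving out 1 array). Exosc8 was at -1.0345 with the slide column as a block (adjusted p = 0.124). The median of the measured genes was -0.025 with the percentile over all probes, -0.3778 with no scaling and -0.1717 with the 25 genes above background on all 6 arrays (all genes: -0.0546), a setting that leaves out Ifit1, Irf7, Parp12 and Cxcl10. Ifit2 was at -0.0847 (percentile over all probes), -0.4375 (no scaling), -0.1278 (normexp, quantile), -0.0747 (slide column) and -0.064 to 0.2091 (leaving out 1 array). Cmpk2 was at -0.025, -0.3778 (no scaling) and -0.009 (normexp, quantile). With no scaling Trim25 was at -0.1686, Herc6 at -0.2617 and Dtx3l at -0.334. Sp100 was at 0.3255 and 0.0691 with normexp (percentile and quantile), 0.114 without both named arrays, and -0.3604 to 0.1295 leaving out 1 array. Ifit1 and Cxcl10 were smaller with normexp, at 3.0723 and 1.7339 (percentile) and 2.9125 and 1.4756 (quantile), which moved Ifit1 below Rsad2 and Isg15 and Cxcl10 below Lgals3bp and Isg20. None of Ifit2, Cmpk2, Trim25, Herc6, Dtx3l and Sp100 passed under any setting. Where the construction of a setting does not show it, the cause was not tested.

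With the replicate block 11 of the 29 rose and 4 fell, and 3170 and 2463 of all genes. Same-numbered samples deviated together with correlations of 0.0358, 0.2187 and 0.3028, so the numbers are not taken to pair the samples.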
